A study of Mus musculus with 24 samples.

Results

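Hspb1, Hspb2, Hspb3, Hspb6, Hspb7, Hspb8 and Cryab encode small heat shock proteins, and Bag3 encodes the co-chaperone that works with them. These 8 genes were taken by symbol from the 47967 genes of a read count table of mouse embryonic fibroblasts that were being turned towards heart muscle cells, and all 8 had enough reads to be tested. The fibroblasts came from C57BL/6 embryos of embryonic day 13.5 to 14.5, and total RNA was sequenced 7 or 2 days after the cells had received a retroviral cocktail named AGHMT, GHMT or GMT, or a mock treatment. Each of the 8 groups of treatment and day had 3 libraries, 24 in all. By the usual meaning of the letters, GMT carries Gata4, Mef2c and Tbx5, GHMT has Hand2 in addition, and AGHMT has Akt1 as well, a kinase of growth factor signalling. The dishes are mixtures of cells that took up all, some or none of the viruses, and the labels do not say whether libraries of a group came from separate cell preparations, so p-values measure library-to-library spread, part or all of which may be technical. The transduced cells were kept in induction medium, and whether the mock cells were too is not stated in the labels.

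Small heat shock proteins are short chaperones built around an alpha-crystallin domain that hold unfolding proteins in a soluble state without using ATP. Heart and skeletal muscle make more kinds of them than most tissues, and there they bind desmin filaments, titin, filamin and actin. BAG3 binds HSPB8 and related small heat shock proteins through its IPV motifs and HSP70 through its BAG domain, and hands damaged filamin C and other sarcomere proteins to the autophagy machinery, a route called chaperone-assisted selective autophagy. Mutations in human CRYAB, HSPB8 and BAG3 cause muscle and heart disease with desmin-containing aggregates. Heat shock factor binds inverted repeats of nGAAn, the heat shock element, and several but not all of these genes are heat-inducible.

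The promoter sequences below describe the members by letters. Those with a heat shock element come first, then those of the genes with the largest folds of AGHMT over mock. RefSeq's promoter windows on GRCm38.p6, from 250 bases before to 50 after a start site, were available for 6 of the 8 members, in 7 windows (Hspb6 has 2). A heat shock element, searched as GAANNTTC or TTCNNGAA (each its own reverse complement, so both strands are covered), was present in 5 of the 6 genes, and in 15.1% of the 32851 promoter windows of the table. Each stretch below has 30 bases, 5′ to 3′ on the gene's strand, with the element in capitals.
Hspb1, chr5:135887801-135887830, plus strand: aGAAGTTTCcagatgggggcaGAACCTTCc
Hspb8, chr5:116422844-116422873, minus strand: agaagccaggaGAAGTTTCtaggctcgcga
Bag3, chr7:128523603-128523632, plus strand: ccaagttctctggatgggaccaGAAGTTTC
Hspb6, chr7:30553170-30553199, plus strand: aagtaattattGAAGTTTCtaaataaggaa
Hspb3, chr13:113663882-113663911, minus strand: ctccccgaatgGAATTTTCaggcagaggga
Hspb1, Hspb8, Bag3 and Hspb6 carried the same 8 letters, GAAGTTTC. In Hspb1 they began 117 bases before the start site, with a further element, GAACCTTC, 97 bases before it, and in the second window of Hspb6 120 bases before the start. In Hspb8 and Bag3 they lay just inside the transcribed part, from base 3 and base 43. A match of letters is a description and not a binding site.

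The next stretches show the 100 bases before the start site of Hspb3 and Hspb7, the genes with the largest folds of AGHMT over mock. In Hspb3 the capitals mark a MEF2 box, an AT-rich match by the name of the factor family of Mef2c. It began 12 bases before the start, and such a box was present in 3.19% of all windows. The match also holds the letters TATAAA, and binding by Mef2c or any other protein was not tested. In Hspb7 the capitals mark an E-box (CANNTG, the kind of site that Hand2 and related proteins bind), present in 72.3% of all windows. E-boxes were also in the windows of Hspb1 and Hspb8 and in that of Hspb3, where both (CAAGTG and CACTTG) lie in the stretch printed and are left in lower case.
Hspb3, chr13:113663677-113663776, minus strand: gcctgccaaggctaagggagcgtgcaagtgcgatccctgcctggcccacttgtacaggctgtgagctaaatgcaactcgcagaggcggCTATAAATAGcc
Hspb7, chr4:141420679-141420778, plus strand: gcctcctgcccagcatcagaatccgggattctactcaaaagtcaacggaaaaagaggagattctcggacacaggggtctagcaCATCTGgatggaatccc
The Hspb7 window held none of the other letters searched. The GATA letters AGATAA (11.2% of all windows) and the CArG box (1.63%) were in none of the members' windows, and the T-box letters AGGTGT (13.7%, either strand) were in the second Hspb6 window only. A window without a match says only that these letters are not in these 300 bases.

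The proteins differ more than their shared name implies. Translated from the principal GENCODE transcripts, the small heat shock proteins have 154 (Hspb3) to 209 (Hspb1) residues, and BAG3 has 577. Over the aligned residues, pairs of small heat shock proteins were identical at 24.0% (Hspb3 with Hspb7) to 49.4% (Hspb6 with Cryab). The identity of their transcripts, on which the assignment of reads depends, was not measured. BAG3 held the tripeptide IPV at residues 98 and 214, the type of motif through which small heat shock proteins bind it. The Hspb2 and Cryab genes lie back to back on chromosome 9, with principal start sites 614 bases apart on opposite strands. Some of their other annotated transcripts share 252 exon bases, where reads cannot be told apart unless the counting used strand, which the sources used here do not give. Hspb6 shares 122 exon bases with Proser3, which lies on the other strand, 77 with Gm38670 and 3 with Lin37.

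Library totals ran from 29345957 to 37495178 counts. The cells were fibroblasts by their markers in mock dishes, where the 7 fibroblast markers summed to 60450 to 65700 CPM (read counts scaled to the library size) at day 7, against 9739 to 10440 under AGHMT, 7919 to 8782 under GHMT and 5233 to 5642 under GMT. All 8 cardiomyocyte markers were called higher and all 7 fibroblast markers lower than mock in each of the 6 comparisons with mock. The summed cardiomyocyte markers were 18000 to 18910 CPM under AGHMT, 12780 to 13760 under GHMT and 8813 to 9305 under GMT at day 7, against 19.0 to 22.6 in mock. The 6 skeletal myogenic markers summed to at most 2.23 CPM in any library, with Myod1, the master regulator of skeletal muscle, at a mean of 0.0303 to 0.0552 CPM in the 8 groups. Macrophage markers summed to 358.2 to 519.7 CPM in mock at day 7 and to at most 62.9 CPM elsewhere, and endothelial markers to at most 13.4 CPM. The part of these other cells in the values below was not tested, and in such mixed dishes more cells of a type and more RNA per cell cannot be told apart. AGHMT day 2 replicate 3 stood apart from its group mates, with a chi-square of its counts, divided by the degrees of freedom, of 43.2 and 46.4 against them, where all other pairs of replicates gave 1.54 to 11.6.

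At day 7 all 8 members were called higher than mock under AGHMT and under GHMT, and 6 were higher and 1 lower under GMT. Under AGHMT 38.6% of all 17576 tested genes were called higher and 38.1% lower, under GHMT 36.3% and 35.6%, and under GMT 37.1% and 36% (edgeR quasi-likelihood test, Benjamini-Hochberg adjusted p under 0.05, as for every call here). The median log2 fold change of the 8 members was 1.87 under AGHMT, 1.79 under GHMT and 1.27 under GMT, while that of all tested genes was -0.0033, 0.0023 and 0.0118. Hspb3 entered the test only through AGHMT and GHMT libraries, where it is higher than in mock. These medians and counts therefore describe the 8 genes and support nothing further. At day 2 the same contrasts gave 5 members higher and 2 lower under AGHMT (38% and 37.4% of all genes), 6 and 1 under GHMT (34.9% and 33.3%), and 5 and 2 under GMT (33.9% and 33.1%). Cryab, Hspb2, Hspb7 and Bag3 were called higher in all 6 comparisons, and Hspb1, Hspb6 and Hspb8 went either way with the cocktail and the day. The comparisons of 1 day share their mock libraries.

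**Figure D1:**
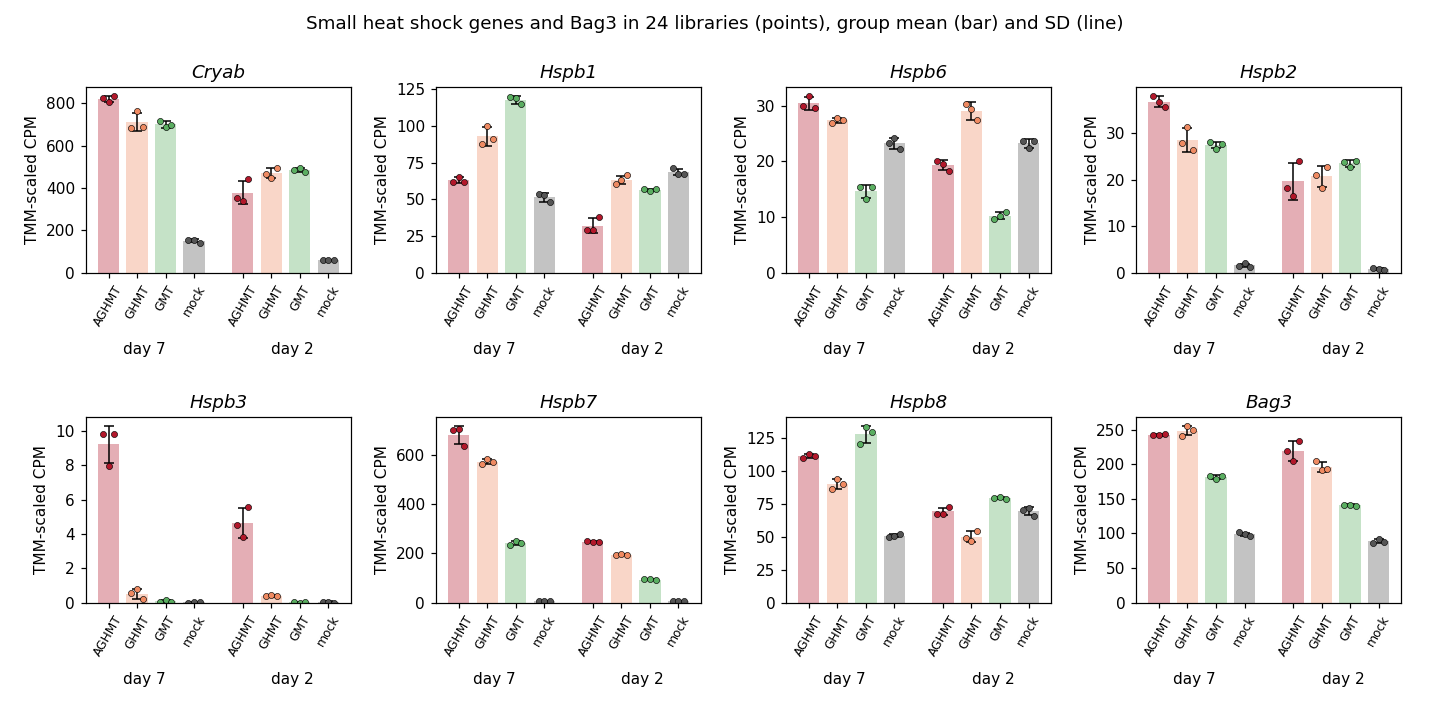
TMM-scaled CPM (vertical axis, from 0) of the 8 genes in every library (points), with the group mean (bar) and SD (line), for AGHMT, GHMT, GMT and mock at day 7 (left) and day 2 (right). Cryab, Hspb2, Hspb7 and Bag3 are above mock in every cocktail group, Hspb3 is at 3.85 to 9.85 CPM under AGHMT and below 0.8 CPM in every other group, and Hspb6 is lowest under GMT on both days.

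**Figure D2:**
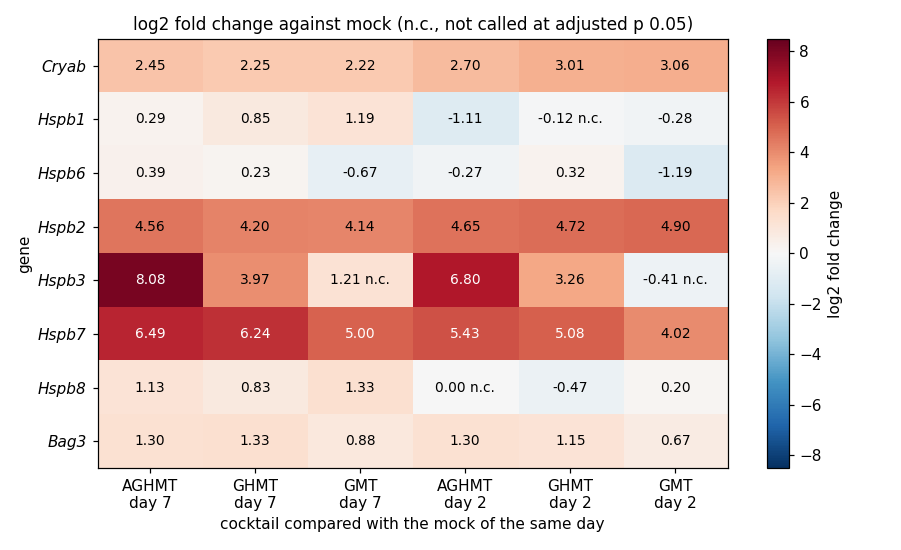
Log2 fold change of each gene (rows) under each cocktail against the mock of the same day (columns), with n.c. where the adjusted p did not pass 0.05. Hspb7 and Hspb2 are strongly higher in all 6 columns, and the negative values are those of Hspb6, Hspb1, Hspb8 and, not called, Hspb3.

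Cryab and its neighbour Hspb2 were the pair that the 3 cocktails raised almost alike. Cryab (ENSMUSG00000032060, chr9:50751325-50756636, plus strand on GRCm38) encodes alpha-B-crystallin, the desmin-binding small heat shock protein of heart muscle. At day 7 it stood at 825, 805 and 832 CPM under AGHMT, 684, 762.2 and 689 CPM under GHMT and 716, 687 and 696 CPM under GMT, against 155, 154 and 142 CPM in mock. Every cocktail library was above every mock library, by 5.47-fold under AGHMT (log2 2.45 ± 0.07 SE, adjusted p = 2.46e-20, edgeR), 4.74-fold under GHMT and 4.66-fold under GMT. At day 2 it stood at 353, 339 and 441 CPM under AGHMT, 463, 448 and 496 CPM under GHMT and 486, 495 and 474 CPM under GMT, against 59.2, 58.0 and 57.3 CPM in mock. The day 2 folds were thus 6.50, 8.06 and 8.33, larger than at day 7 although the levels were lower, since Cryab also rose in mock dishes, 2.58-fold at day 7 over day 2 (edgeR, adjusted p = 2.74e-14).

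Hspb2 (ENSMUSG00000038086, chr9:50751078-50752354, minus strand) encodes a muscle small heat shock protein that binds the kinase DMPK. At day 7 it stood at 38.1, 36.8 and 35.6 CPM under AGHMT, 28.02, 31.4 and 26.3 CPM under GHMT and 28.1, 26.7 and 27.8 CPM under GMT, against 1.42, 1.96 and 1.27 CPM in mock. The groups did not overlap with mock, and the folds were 23.7 (log2 4.56 ± 0.15 SE, adjusted p = 6.48e-19, edgeR), 18.4 and 17.7. On day 2 it averaged 19.6 ± 4.00 CPM under AGHMT, 20.7 ± 2.29 CPM under GHMT and 23.6 ± 0.76 CPM under GMT, against 0.78 ± 0.30 CPM in mock (SD, n = 3 each), folds of 25.0, 26.4 and 29.9. The Cryab to Hspb2 read ratio was 18.3 to 26.2 in the 18 cocktail libraries and 54.9 to 119.8 in the 6 mock libraries, so Hspb2 gained more than its neighbour. The mock ratios rest on 82 Hspb2 reads at day 2 and 153 at day 7, each over 3 libraries.

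Hspb7 was low in mock and rose under every cocktail on both days. Hspb7 (ENSMUSG00000006221, chr4:141420779-141425311, plus strand), known as the cardiovascular heat shock protein, acts at cardiac thin filaments. At day 7 it stood at 700.1, 704 and 637 CPM under AGHMT, 564, 582 and 571 CPM under GHMT and 235, 251 and 243 CPM under GMT, against 7.57, 8.08 and 7.04 CPM in mock. The 4 groups did not overlap and fell in the order AGHMT, GHMT, GMT and mock. The folds over mock were 89.9 (log2 6.49 ± 0.06 SE, adjusted p = 2.93e-30, edgeR), 75.6 and 32.1. On day 2 it stood at 249.7, 245 and 246 CPM under AGHMT, 193, 197.5 and 193 CPM under GHMT and 94.7, 95.2 and 90.2 CPM under GMT, against 5.89, 5.82 and 5.51 CPM in mock. The order of the groups was the same as at day 7, at folds of 43.0, 33.9 and 16.3.

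Hspb3 was far higher under AGHMT than in any other group. Hspb3 (ENSMUSG00000051456, chr13:113662896-113663676, minus strand) is a muscle small heat shock protein that pairs with HSPB2, and its gene has a single exon. At day 7 it stood at 9.85, 7.97 and 9.81 CPM under AGHMT, 0.53, 0.79 and 0.23 CPM under GHMT and 0.030, 0.14 and 0.054 CPM under GMT, against 0, 0.060 and 0.032 CPM in mock. AGHMT was above all others, GHMT was above GMT and mock, and GMT and mock overlapped. Over 3 libraries there were 887 reads under AGHMT, 55 under GHMT, 8 under GMT and 3 in mock, so that folds over mock are ratios with wide counting intervals, 303.3 (95% interval 103.5 to 1474) for AGHMT and 17.6 (5.70 to 87.7) for GHMT. Against GHMT, AGHMT was 17.3 times higher (13.2 to 23.1), and these intervals cover counting error only. At day 2 there were 473 reads under AGHMT, 36 under GHMT, 3 under GMT and 4 in mock, and the ratio of AGHMT to GHMT was 11.8 (8.38 to 17.01). Both GHMT contrasts with mock were called (edgeR, adjusted p = 1.52e-05 at day 7 and 0.000253 at day 2), and neither GMT contrast was (0.317 and 0.786). Since Hspb3 entered the test only through AGHMT and GHMT libraries, where it is higher, its calls describe these counts and support nothing further.

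Hspb1 and Hspb6 did not follow the muscle members. Hspb1 (ENSMUSG00000004951, chr5:135887919-135889563, plus strand), the heat-inducible HSP25 of mouse, binds actin and is made in most cells. At day 7 it stood at 61.9, 65.4 and 61.9 CPM under AGHMT, 87.4, 99.8 and 91.2 CPM under GHMT and 119.5, 119 and 115 CPM under GMT, against 53.3, 53.1 and 47.8 CPM in mock. The 4 groups did not overlap, and GMT was the highest, at 2.29-fold over mock (log2 1.19 ± 0.07 SE, adjusted p = 7.78e-14, edgeR), then GHMT at 1.80-fold and AGHMT at 1.23-fold. On day 2 the values were 29.0, 28.7 and 37.7 CPM under AGHMT, 60.6, 63.0 and 66.2 CPM under GHMT and 56.6, 55.7 and 57.0 CPM under GMT, against 71.0, 67.4 and 67.4 CPM in mock. At that time AGHMT was at 0.464 of mock (adjusted p = 7.05e-13, edgeR) and GMT at 0.823, both lower, while GHMT at 0.922 was not called (adjusted p = 0.148). The GHMT value was called lower without AGHMT day 2 replicate 3 (0.0334), with only the compared libraries (0.037), and with the 3 furthest libraries left out together (0.00346).

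Hspb6 (ENSMUSG00000036854, chr7:30552178-30555443, plus strand) encodes HSP20, a phosphorylated regulator of contraction in smooth and heart muscle. At day 7 it stood at 30.01, 31.8 and 29.6 CPM under AGHMT, 26.9, 27.8 and 27.4 CPM under GHMT and 15.3, 13.3 and 15.3 CPM under GMT, against 23.4, 24.2 and 22.3 CPM in mock. GMT alone was below mock, at 0.628 (log2 -0.67 ± 0.06 SE, adjusted p = 5.7e-10, edgeR), while AGHMT was at 1.31 and GHMT at 1.18 of mock, both called higher. At day 2 it stood at 20.02, 19.6 and 18.2 CPM under AGHMT, 30.4, 29.4 and 27.4 CPM under GHMT and 9.61, 10.2 and 10.9 CPM under GMT, against 23.7, 22.3 and 23.7 CPM in mock. GMT was again lowest, at 0.440 of mock, AGHMT was lower at 0.829, and GHMT was higher at 1.25. The 6 smooth muscle markers, a cell type in which Hspb6 is also made, summed to 5616 to 6067 CPM under AGHMT, 5174 to 5407 under GHMT, 2949 to 3211 under GMT and 4686 to 5233 in mock at day 7. At day 2 they summed to 2657 to 3120 CPM under AGHMT, 5235 to 5315 under GHMT, 1941 to 2000 under GMT and 6467 to 7051 in mock. Taken singly, the markers differed. Against mock at day 7, 3 were called higher and 3 lower under AGHMT, 2 and 2 under GHMT, and 0 and 6 under GMT. At day 2 the calls were 0 and 6, 1 and 4, and 0 and 6, with the shares of all genes as given above. Both Hspb6 and the marker sums had GMT as the lowest group on both days, and the part of these markers' cells in the Hspb6 values was not tested.

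Bag3 was higher under every cocktail on both days, by a modest factor from a substantial level in mock. Bag3 (ENSMUSG00000030847, chr7:128523616-128546981, plus strand) stood at 242, 242 and 244 CPM under AGHMT, 241, 255 and 249.9 CPM under GHMT and 183, 179 and 183 CPM under GMT at day 7, against 101, 98.5 and 96.3 CPM in mock. Libraries of AGHMT and GHMT overlapped and lay above those of GMT, which lay above mock. The folds were 2.46 (log2 1.30 ± 0.04 SE, adjusted p = 7.44e-19, edgeR), 2.52 and 1.84. At day 2 it averaged 219 ± 14.4 CPM under AGHMT, 197 ± 7.34 CPM under GHMT and 141 ± 0.94 CPM under GMT, against 88.6 ± 3.09 CPM in mock (SD, n = 3 each), at folds of 2.47, 2.22 and 1.59.

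Hspb8, the partner that BAG3 binds, was higher than mock under every cocktail at day 7 but not at day 2. Hspb8 (ENSMUSG00000041548, chr5:116408491-116422864, minus strand) stood at 109.6, 113 and 111 CPM under AGHMT, 86.2, 93.8 and 89.8 CPM under GHMT and 120.3, 133 and 129 CPM under GMT at day 7, against 49.6, 50.3 and 52.2 CPM in mock. GMT was the highest group and GHMT the lowest of the cocktails, with folds of 2.19 for AGHMT (log2 1.13 ± 0.05 SE, adjusted p = 4.24e-16, edgeR), 1.77 for GHMT and 2.51 for GMT. At day 2 it stood at 67.5, 67.5 and 72.3 CPM under AGHMT, 49.0, 46.5 and 54.4 CPM under GHMT and 79.4, 80.3 and 78.5 CPM under GMT, against 70.3, 71.6 and 65.9 CPM in mock. GHMT was at 0.721 of mock and lower (adjusted p = 1.77e-08, edgeR), GMT was at 1.15 and higher (0.00157), and AGHMT overlapped with mock at 0.998 (0.955).

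Levels per kilobase of merged exon give a rough scale between genes. The length takes in all annotated exons, whether or not they are used in these cells, so close ranks may not hold. On this scale the mean levels at day 7 under AGHMT were 554.6 CPM per kb for Cryab, 246 for Hspb7, 94.8 for Bag3, 61.2 for Hspb1, 56.9 for Hspb8, 44.2 for Hspb2, 13.3 for Hspb6 and 11.8 for Hspb3. In mock at day 7 they were 101.5 for Cryab, 49.9 for Hspb1, 38.5 for Bag3, 26.0 for Hspb8, 10.1 for Hspb6, 2.73 for Hspb7, 1.86 for Hspb2 and 0.039 for Hspb3. Cryab headed both lists, and Hspb7 moved past Hspb1, Bag3, Hspb8 and Hspb6 in the AGHMT list.

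AGHMT against GHMT compares mixed dishes given the cocktails with and without Akt1, by the usual meaning of the letters. The effect of Akt1 itself within a cell was not isolated. At day 7, 6 members were higher and 1 lower in this comparison (25% and 23.6% of all genes), and at day 2, 4 were higher and 3 lower (25.7% and 27%). Hspb3, which entered the test only through AGHMT and GHMT libraries, had the largest change on both days, as above. Hspb7 was 1.19-fold higher at day 7 (log2 0.25 ± 0.04 SE, adjusted p = 2.47e-05, edgeR) and 1.27-fold at day 2, and Hspb8 was 1.24-fold and 1.38-fold higher. Hspb1 was lower on both days, at 0.679 of GHMT at day 7 (adjusted p = 2.96e-07) and 0.504 at day 2 (3.06e-11). Cryab and Hspb6 turned with the day. At day 7 Cryab was 1.15-fold higher (adjusted p = 0.0129) and Hspb6 1.11-fold higher (0.0324), and at day 2 Cryab was at 0.806 (0.000353) and Hspb6 at 0.664 of GHMT (9.53e-09). The day 7 calls were thin: leaving out GHMT day 7 replicate 1 or 3 ended both, as did leaving out AGHMT day 7 replicate 1 or 2 for Hspb6 (adjusted p up to 0.0683 for Cryab and 0.14 for Hspb6), and Hspb6 was not called with no filter on low counts (0.118). Hspb2 was 1.29-fold higher at day 7 (0.00502) and was not called at day 2 (0.603), where it was at 0.9498 of GHMT with AGHMT day 2 replicate 3 and called lower without it (log2 -0.25, 0.0235). Bag3 was not called at day 7 (0.54) and was 1.11-fold higher at day 2 (0.00399), with overlapping libraries, a call that ended when only the compared libraries were fitted (0.0801).

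GHMT against GMT compares the cocktails with and without Hand2 in the same way, and the effect of Hand2 itself was not isolated. At day 7, 4 members were higher and 2 lower (18.7% and 18.8% of all genes), and at day 2, 4 were higher and 1 lower (23.1% and 21.7%). Hspb3, Hspb6, Hspb7 and Bag3 were higher on both days, of which Hspb3 entered the test only through AGHMT and GHMT libraries. Hspb7 was 2.36-fold higher at day 7 (log2 1.24 ± 0.04 SE, adjusted p = 1.27e-17, edgeR) and 2.08-fold at day 2. Hspb6 was 1.87-fold higher at day 7 (6.9e-12) and 2.84-fold at day 2 (5.22e-16), and Bag3 1.37-fold and 1.39-fold. For Hspb3 the read counts were 55 under GHMT against 8 under GMT at day 7 and 36 against 3 at day 2, ratios of 7.08 (95% interval 3.35 to 17.2) and 14.3 (4.52 to 72.6). Hspb8 was lower on both days, at 0.706 of GMT at day 7 (9.04e-09) and 0.629 at day 2 (8.18e-11), and Hspb1 was lower at day 7, at 0.789 (0.000234). Cryab and Hspb2 were called on neither day, with log2 changes of 0.02 ± 0.07 and 0.06 ± 0.10 (SE) at day 7 and -0.05 ± 0.07 and -0.18 ± 0.11 at day 2. At day 2 the Hspb2 value was called lower with no filter on low counts (0.0265) and with only the compared libraries (0.024). Hspb1 was not called at day 2 (log2 0.17, 0.0632) but was called higher with only the compared libraries (0.00243) and without AGHMT day 2 replicate 1, 2 or 3 (0.0497, 0.048 and 0.00478).

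**Figure D3:**
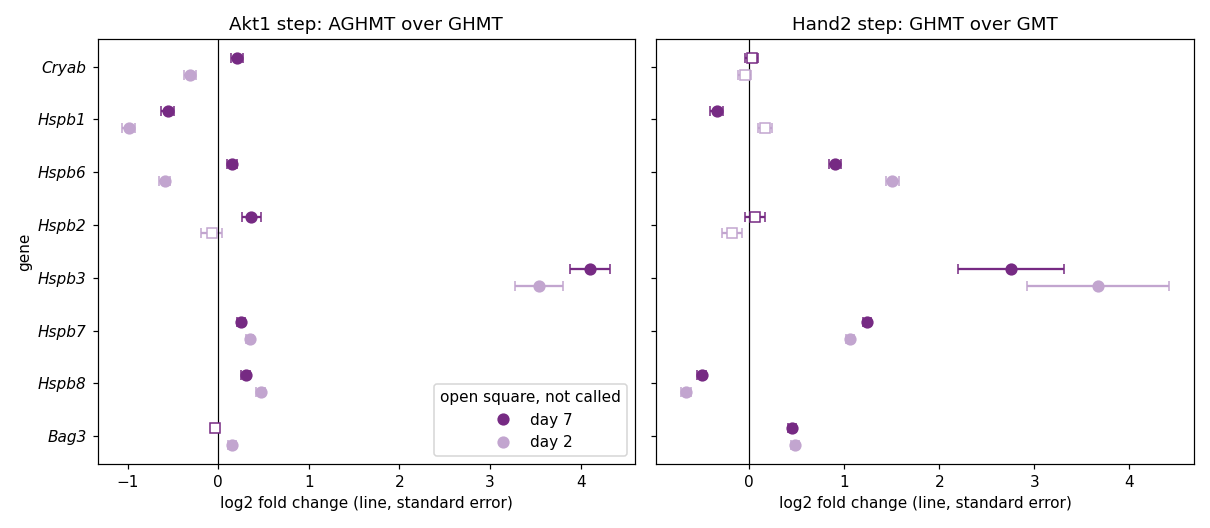
Log2 fold change (horizontal axis) with its standard error of each gene for AGHMT over GHMT (left) and GHMT over GMT (right), at day 7 (dark) and day 2 (light), with open squares where it was not called. Hspb3 and Hspb7 are to the right of 0 in both panels on both days, Hspb8 is to the right on the left panel and to the left on the right panel, and Cryab and Hspb6 change side between the days on the left panel.

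The mock dishes themselves changed between the days, with 4 members higher and 2 lower at day 7 than at day 2 (29.7% and 25.8% of all genes). Cryab was 2.58-fold and Hspb2 1.98-fold higher at day 7 (adjusted p = 2.74e-14 and 0.00482, edgeR), and Hspb7 and Bag3 were 1.32-fold and 1.11-fold higher. Hspb1 was at 0.75 of its day 2 level and Hspb8 at 0.732 (2.22e-05 and 7.49e-08), both lower, while Hspb6 (0.985) and Hspb3 (0.863) were not called. These changes enter the difference of a cocktail's effect between the days.

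The effect of a cocktail over mock was set against itself, day 7 over day 2, in an interaction term. Under AGHMT 4 members had a higher and 1 a lower ratio at day 7 (24.8% and 26.1% of all genes), under GHMT also 4 and 1 (23.3% and 26%), and under GMT 5 and 2 (24.3% and 25.3%). Hspb1, Hspb7 and Hspb8 gained under all 3 cocktails. The ratio of Hspb7 to mock was 2.09 times larger at day 7 under AGHMT (log2 1.06 ± 0.08 SE, adjusted p = 3.07e-11, edgeR), 2.23 times under GHMT and 1.97 times under GMT. For Hspb8 the factors were 2.19, 2.46 and 2.19, and for Hspb1 2.64, 1.96 and 2.78, and both genes had fallen in mock over the same days. Cryab ratios were smaller at day 7, by factors of 0.841 under AGHMT (adjusted p = 0.0337), 0.588 under GHMT (3.41e-07) and 0.559 under GMT (7.95e-08), and the AGHMT call ended without any 1 of 6 AGHMT or mock libraries (adjusted p up to 0.107) and with only the compared libraries (0.0861). Without AGHMT day 2 replicate 3 that log2 value was -0.13, against -0.25 with it. Hspb2 was lower under GMT, at 0.591 (0.0409), and the call ended without any 1 of 6 GMT or mock libraries (adjusted p up to 0.18). Hspb6 gained under AGHMT, by 1.58, and under GMT, by 1.43, but was not called under GHMT (0.42). Hspb3, with few mock reads, was not called under AGHMT (2.43, adjusted p = 0.458), GHMT (1.64, 0.702) or GMT (3.08, 0.446). Bag3 gained by 1.14 under GHMT (0.0162) and 1.16 under GMT (0.00699) and was not called under AGHMT (0.951). Neither Bag3 call held with no filter on low counts (0.143 and 0.137), and the GHMT call also ended without mock day 2 replicate 2 (0.0573).

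**Figure D4:**
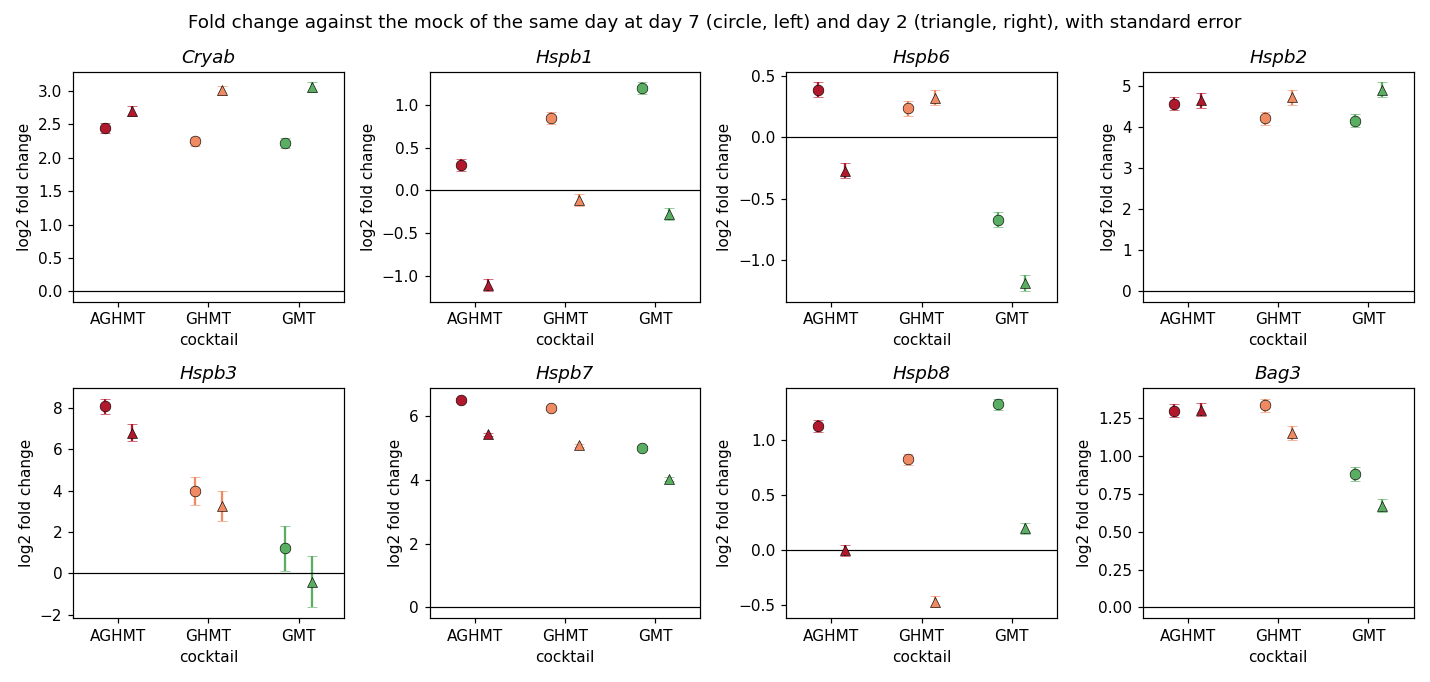
Log2 fold change over the mock of the same day (vertical axis, with standard error) under AGHMT, GHMT and GMT, at day 7 (circles) and day 2 (triangles), 1 panel per gene. Hspb1, Hspb7 and Hspb8 lie higher at day 7 under every cocktail and Cryab lies lower, and Hspb1 lies below 0 at day 2 (not called under GHMT) and above 0 at day 7 under all 3.

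The same was done for the addition of 1 factor. The AGHMT to GHMT ratio was higher at day 7 than at day 2 for 4 members and lower for 1 (13.3% and 9.05% of all genes). Among the members called, Hspb6 had the largest such change, by 1.68 (log2 0.74 ± 0.08 SE, adjusted p = 3.12e-07, edgeR), then Cryab by 1.43 (0.00021), Hspb2 by 1.36 (0.0398) and Hspb1 by 1.35 (0.00261), while Bag3 fell to 0.877 (0.0259). The Hspb2 call ended without any 1 of 10 libraries (adjusted p up to 0.115) and the Bag3 call without AGHMT day 7 replicate 2, GHMT day 2 replicate 2 or 3, or GHMT day 7 replicate 2 (up to 0.0725), and both ended with only the compared libraries (0.0963 for Hspb2 and 0.0755 for Bag3). The 6 smooth muscle markers were all called higher in this same comparison, with a median log2 change of 1.12, and their part in the Hspb6 value was not tested. The GHMT to GMT ratio was higher at day 7 for 1 member and lower for 2 (7.58% and 9.06% of all genes): Hspb7 by 1.13 (adjusted p = 0.0445, up to 0.128 with a single library left out and 0.0856 with no filter on low counts), and Hspb6 at 0.659 (2.07e-05) and Hspb1 at 0.704 (0.00056). Hspb3 changed by 1.48 for AGHMT to GHMT (0.405) and 0.531 for GHMT to GMT (0.671), neither called. Hspb8 was called in neither of these comparisons (0.115 for AGHMT to GHMT and 0.136 for GHMT to GMT), but in both without GHMT day 2 replicate 3 (log2 -0.23, 0.0201, and 0.23, 0.0258).

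For each member, the 3 named genes with the most similar log2 CPM over the 24 libraries were found among 10622 genes of at least 5 CPM on average. The libraries of a group share their treatment, so these correlations mostly describe the 8 groups. Hspb7 was closest to Msi2, Tnnc1 and Dnajb2 (Pearson r 0.994, 0.993 and 0.991), Bag3 to Tbx20, Mcpt4 and Tnnc1 (0.993, 0.989 and 0.988), and Cryab to Mylk3, Gpx3 and Sorbs2 (0.993, 0.991 and 0.988). Tnnc1 encodes cardiac troponin C and Mylk3 the cardiac myosin light chain kinase. Hspb2 was closest to Des, the gene of desmin (0.991), Reep2 (0.989) and Gba2 (0.986). Hspb3 was closest to Trmt2b, Hsdl2 and Rmdn3 (0.977, 0.973 and 0.972), and Hspb6 to Acta2 (0.932), Adgrg6 (0.926) and Myh11 (0.924), of which Acta2 and Myh11 encode smooth muscle actin and myosin. Hspb1 was closest to Chrnb1 (0.964), Tnfrsf12a (0.935) and Rusc2 (0.933), and Hspb8 to Bloc1s6 (0.957), Ica1 (0.954) and Gss (0.937). Among the members, Hspb7 and Bag3 had r = 0.979 and Hspb2 and Cryab 0.970, while Hspb6 stayed between -0.24 and 0.46 with all others.

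The heat-inducible chaperones, 17 genes of the HSP70, HSP90, HSP40 and HSP60 families and their partners, were called in both directions. At day 7, 6 were higher and 8 lower under AGHMT, 6 and 7 under GHMT, and 10 and 4 under GMT, with median log2 changes of -0.05, -0.01 and 0.19, where 36.3% to 38.6% of all genes were higher and 35.6% to 38.1% lower. At day 2, 3 were higher and 12 lower under AGHMT, 1 and 12 under GHMT and 3 and 8 under GMT, with medians of -0.53, -0.27 and -0.14, where 33.9% to 38% of all genes were higher and 33.1% to 37.4% lower. Hspa1b, an inducible HSP70 gene, was lower in all 6 comparisons, at 7.12 ± 0.50 CPM under AGHMT, 7.63 ± 0.80 under GHMT and 6.47 ± 0.64 under GMT, against 20.2 ± 1.17 CPM in mock at day 7 (SD, n = 3 each). Hspa1a is a near-identical copy, so the split of reads between them is uncertain. Hsph1, the HSP110 nucleotide exchange factor, was also lower in all 6, at 0.735, 0.743 and 0.918 of mock at day 7 and 0.490, 0.423 and 0.531 at day 2. The GMT call at day 7 (adjusted p = 0.0349, with libraries overlapping mock) ended without any 1 of 4 GMT or mock libraries (up to 0.224) and by DESeq2 (0.068). Of the others in the list, Fkbp4 was lower in all 6 and Dnajb4 was higher in all 6 in the main fit. Hsp90aa1 was higher at day 7, by 1.28, 1.5 and 1.86, and at day 2 lower under AGHMT and GHMT (0.625 and 0.845). Dnajb1 was higher under AGHMT and GHMT at day 7, by 1.14 and 1.15, and not called elsewhere. Hsf1, the main heat shock factor, was at 0.801 of mock under AGHMT at day 7 and 0.748 at day 2, both lower. Under GMT at day 7 Hsf1 was called higher, at 1.089 (adjusted p = 0.0419), a call that ended without any 1 of 6 libraries (up to 0.231). Hsf2 was lower under GHMT and GMT on both days (0.745 to 0.869). Hsf4 went the other way under GHMT and GMT, with log2 changes of 0.92 and 1.11 at day 7 and 0.43 and 0.66 at day 2. It was not called under AGHMT, and its GHMT call at day 2 ended without any 1 of 5 libraries.

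Genes of chaperone-assisted selective autophagy, 14 in the list, were also called in both directions, and the list was not tested against other genes. At day 7, 9 were higher and 4 lower under AGHMT, 9 and 3 under GHMT and 9 and 3 under GMT, with median log2 changes of 0.36, 0.31 and 0.32. At day 2, 7 and 4, 7 and 5, and 9 and 3 were called under AGHMT, GHMT and GMT, with medians of 0.11, 0.16 and 0.24. The shares of all genes are those given for the heat-inducible chaperones. Flnc, the filamin of muscle and a client of BAG3, averaged 1582 ± 47.6 CPM under AGHMT, 1167 ± 77.9 under GHMT and 1258 ± 28.3 under GMT, against 521 ± 22.8 CPM in mock at day 7 (SD, n = 3 each), and was higher in all 6 comparisons. Dnajb6, an HSP40 that joins BAG3 complexes in muscle, was higher in all 6, by 1.46 (GMT at day 2) to 3.12 (AGHMT at day 7). Synpo2, the BAG3 partner that links it to autophagosome membranes, was higher under AGHMT alone, at 56.8 ± 2.54 CPM, and lower under GHMT and GMT, at 10.7 ± 1.41 and 9.25 ± 0.27 CPM, against 15.1 ± 0.59 CPM in mock at day 7 (SD, n = 3 each). Sqstm1, the p62 autophagy receptor, was higher under all 3 cocktails at day 7, by 1.35, 1.76 and 2.09, and at day 2 under GMT only. Map1lc3b was higher in all 6, by 1.13 to 1.74, though not under AGHMT at day 7 without mock day 7 replicate 3 (0.0574). Stub1, the CHIP ubiquitin ligase, was lower under AGHMT and GHMT at day 7 (0.802 and 0.889), of which the GHMT call (adjusted p = 0.0368) ended without any 1 of 4 GHMT or mock libraries (up to 0.136) and by DESeq2 (0.077). Hspa8, the constitutive HSP70, was higher under GMT and lower under AGHMT on both days, and the GMT call at day 2 (0.0233) ended without any 1 of 3 libraries (up to 0.0921).

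**Figure D5:**
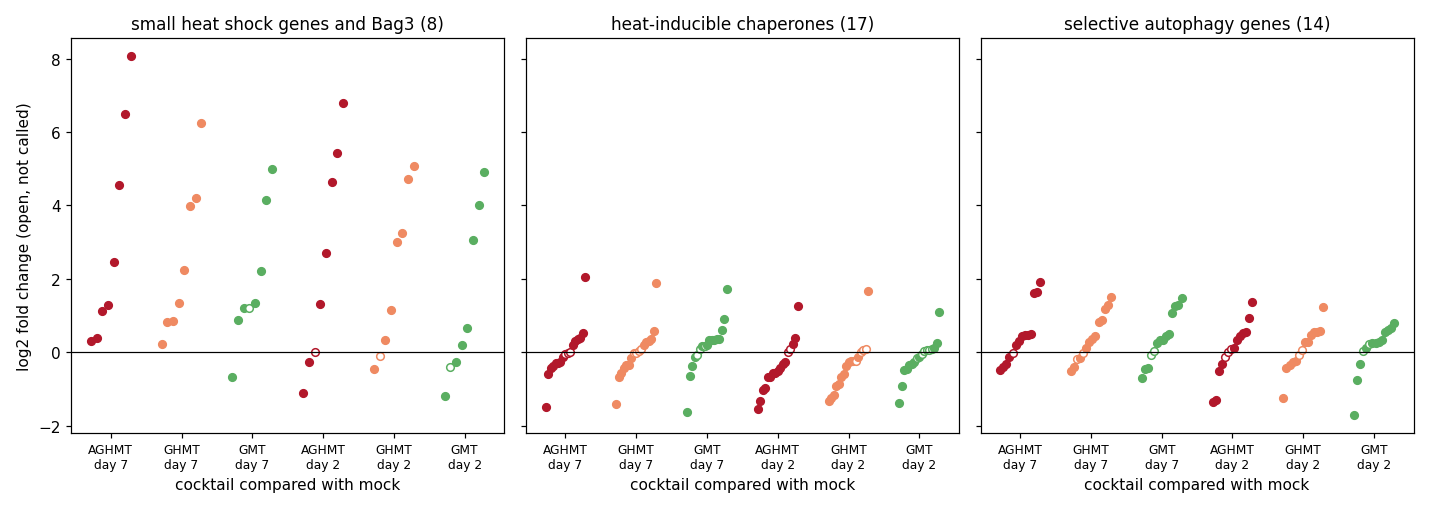
Log2 fold change over the mock of the same day (vertical axis) of the 8 members, the 17 heat-inducible chaperones and the 14 selective autophagy genes, each point a gene and open points not called, for the 3 cocktails at day 7 and day 2. Hspb3 reaches 8.08 under AGHMT at day 7, over 3 mock reads, and Cryab, Hspb2 and Hspb7 lie at 2.22 or above. Hspb1, Hspb6, Hspb8 and Bag3 lie between -1.19 and 1.33, within the range of the heat-inducible chaperones, -1.64 to 2.06.

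Of the other BAG genes, Bag1, Bag2, Bag4 and Bag6 were higher and Bag5 lower under all 3 cocktails at day 7. The Bag4 and Bag6 calls under AGHMT (log2 0.16 and 0.10) and under GMT (0.14 and 0.11) were thin, with adjusted p up to 0.175 and 0.347 under AGHMT and 0.246 and 0.162 under GMT when 1 library was left out, and none of the 4 held with no filter on low counts. Bag2, whose protein acts with CHIP, was at 59.5 ± 1.75, 55.9 ± 1.501 and 41.0 ± 2.06 CPM under AGHMT, GHMT and GMT, against 32.1 ± 1.03 CPM in mock (SD, n = 3 each). At day 2, Bag2 was lower under all 3 cocktails (log2 -0.66, -0.59 and -1.24 under AGHMT, GHMT and GMT) and Bag4 higher, under GHMT not without GHMT day 2 replicate 2 (adjusted p = 0.0629). Of the other small heat shock genes, Cryaa and Odf1 were too low to test, at means of at most 0.27 and 0.048 CPM, and Hspb9 was at most at 0.59 CPM. Hspb9 was called higher under AGHMT at day 7 (2.67-fold, adjusted p = 0.0355) and day 2 (1.87-fold, 0.0293), but neither by DESeq2 (0.0503 and 0.0854). Of the 4 intermediate filament genes, Des was higher in all 6 comparisons, by 12.4 (GHMT at day 2) to 20.9 (AGHMT at day 7), with 1950 ± 47.8 CPM under AGHMT, 1311 ± 34.0 under GHMT and 1402 ± 31.5 under GMT, against 93.2 ± 5.30 CPM in mock at day 7 (SD, n = 3 each). Vim was higher in 5 comparisons and lower under AGHMT at day 2 (0.610). The 12 ER chaperones were split, with 5 higher and 6 lower under AGHMT, 6 and 6 under GHMT and 6 and 6 under GMT at day 7, and 3 and 8, 3 and 8 and 3 and 7 at day 2. The 7 mitochondrial chaperones were 2 higher and 4 lower under AGHMT, 3 and 4 under GHMT and 4 and 2 under GMT at day 7, and 4, 5 and 4 were lower and at most 1 higher at day 2 (up to 2 under other settings). For all lists of this paragraph the shares of all genes are those given for the heat-inducible chaperones, and no list was tested against other genes.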

How the data were processed

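The deposited table holds the authors' raw whole-number read counts per gene. Per the submitters' processing notes, featureCounts 1.4.6, HISAT2 2.0.1, Trim Galore 0.4.1 and DESeq2 1.6.3 were among the tools, and GRCm38 (mm10) was the build; the sources used here do not give the strand setting or the annotation release. A deposited log2 table equals log2 CPM of these counts within 0.00603 and was used only for that check. Genes passing filterByExpr (17576) were scaled by TMM and fitted with edgeR 4.0.16 under R 4.3.3, all 24 libraries in 1 model with a mean for each group (16 residual degrees of freedom, two-sided quasi-likelihood F tests, Benjamini-Hochberg adjusted p under 0.05). The biological coefficient of variation was 5.55%. Levels are TMM-scaled CPM. There were 14 planned comparisons, and the comparisons of a single factor's addition between the days, 2 in all, were added after values had been seen. The fit was tested on simulated data. No replicate pair agreed within sampling noise. Same-numbered libraries rarely deviated together, and the main fit did not pair them. Whether they shared a cell preparation is not given by the labels, and this check does not show it. Coordinates are GENCODE M21 on GRCm38; promoters are RefSeq. Genes outside the members were named from lists of 8 pathways and 6 cell types and by correlation. The members and lists were chosen with earlier results of these data known. Alternatives were DESeq2 1.42.0, RLE factors, no count filter, only the compared libraries, a replicate block and leaving out libraries.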

Additional observations from a re-analysis of the deposited data

Results flagged for a closer look

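The effects below differed between day 7 and day 2 by a test of the difference itself (edgeR interaction term, adjusted p under 0.05; log2 change of the ratio, day 7 less day 2). The cause of each was not tested, and the day change in mock enters each cocktail's effect over mock.

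For the effect over mock, Hspb1 gained 1.4 under AGHMT, 0.97 under GHMT and 1.47 under GMT. Hspb7 gained 1.06, 1.16 and 0.98 under AGHMT, GHMT and GMT. Hspb8 gained 1.13 under AGHMT, 1.30 under GHMT and 1.13 under GMT. Hspb6 gained 0.66 under AGHMT and 0.52 under GMT, and Bag3 gained 0.18 under GHMT and 0.21 under GMT. Cryab changed by -0.25 under AGHMT, -0.77 under GHMT and -0.84 under GMT, and Hspb2 by -0.76 under GMT. Both Bag3 calls ended with no filter on low counts (adjusted p = 0.143 under GHMT and 0.137 under GMT), and the calls of Cryab under AGHMT and Hspb2 under GMT ended when single libraries were left out (up to 0.107 and 0.18).

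For AGHMT over GHMT, the ratio of Hspb6 changed by 0.74, Cryab by 0.52, Hspb2 by 0.44, Hspb1 by 0.43 and Bag3 by -0.19. For GHMT over GMT, Hspb6 changed by -0.60, Hspb1 by -0.51 and Hspb7 by 0.18. Of these, the Hspb2, Bag3 and Hspb7 calls each ended when single libraries were left out (adjusted p up to 0.115, 0.0725 and 0.128). Every AGHMT library of Hspb6 was above every GHMT library at day 7 and below every one at day 2.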

How the results depend on the processing

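Of the 128 log2 fold changes of the members, 101 kept their direction and their side of the threshold under every alternative run, and every one whose direction turned had not been called. The counts of all genes called stayed within 1.5 times throughout. Why a value moved was not tested. The replicate block, which pairs libraries by replicate number (1 of 84 same-numbered pairs correlated over 0.1, and 10 of 24 libraries correlated best with their own number), ended 1 call, that of Hspb2 in AGHMT over GHMT, day 7 less day 2 (adjusted p = 0.0516), and no other member call. Depth limits the contrasts of Hspb3 with GMT and mock, groups with 3 to 8 reads each.

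Hspb8 under AGHMT at day 2 (log2 -0.003 against mock) was 0.011 by DESeq2, 0.007 with RLE factors, 0.02 with no count filter and 0.003 with only the compared libraries. With no filter on low counts, 2 members were lower in GHMT versus GMT at day 2 and 2 in the GHMT effect, meaning its ratio to mock at day 7 over that at day 2 (1 each in the main analysis), 0 were lower in AGHMT versus GHMT, day 7 less day 2, and 0 higher in GHMT versus GMT, day 7 less day 2 (1 each). With only the compared libraries, 2 were lower in GHMT versus mock and in GHMT versus GMT at day 2, 0 were lower in the AGHMT effect and in AGHMT versus GHMT, day 7 less day 2, and Hspb6 in mock, day 7 versus day 2, was -0.016 (0.002 in the main analysis).

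Leaving out AGHMT day 2 replicate 3, GHMT day 7 replicate 2 and GHMT day 2 replicate 3 together, chosen after seeing the data, gave 2 lower in GHMT versus mock and 3 in GHMT versus GMT at day 2, 0 lower in AGHMT versus GHMT and 2 higher in GHMT versus GMT, day 7 less day 2. In the same fit Hspb2 and Cryab in GHMT versus GMT at day 7 were -0.016 and -0.027, and Hspb2 and Bag3 in the AGHMT effect were 0.094 and 0.04.

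With each library left out in turn, the members called lower ranged from 1 to 2 in GHMT versus mock at day 2, 0 to 1 in the AGHMT effect, 1 to 2 in the GMT effect and 0 to 1 in AGHMT versus GHMT, day 7 less day 2, and those called higher from 0 to 1 in GHMT versus GMT, day 7 less day 2. Uncalled log2 values that crossed 0 were Hspb8 in AGHMT versus mock at day 2 (-0.037 to 0.022), Hspb3 in GMT versus mock at day 2 (-1.284 to 0.11) and in mock (-1.138 to 0.261), Hspb6 in mock (-0.026 to 0.039), Hspb2 in GHMT versus GMT at day 7 (-0.017 to 0.113), in AGHMT versus GHMT at day 2 (-0.253 to 0.034) and in the AGHMT effect (-0.375 to 0.159), Cryab in GHMT versus GMT at day 7 (-0.028 to 0.052), and Bag3 in the AGHMT effect (-0.055 to 0.04) and in GHMT versus GMT, day 7 less day 2 (-0.043 to 0.006).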
